A study of Mus musculus with 56 samples.

Results

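The 10 genes described here make bile acids from cholesterol in the liver or control that synthesis: Cyp7a1, Cyp8b1, Cyp27a1, Cyp7b1, Hsd3b7, Akr1d1, Slc27a5, Baat, Nr0b2 and Nr1h4. They were taken by name, as the rows of the gene table whose Ensembl identifiers carry these symbols in GENCODE vM21, and all 10 were found among the 25396 genes tested. The 56 livers came from C57BL/6J females that were 9 weeks old when sampled. The mice entered a 12 h light and 12 h dark cycle at 7 weeks with chow at all times, and after 7 days were moved for a further 7 days to daytime-restricted feeding (DRF) or to nighttime-restricted feeding (NRF), the reference. The clock hours at which food was given are not stated in the sources used here. Sampling fell at 0, 4, 8, 12, 16, 20 and 24 h after lights on, written as ZT for zeitgeber time. There were 4 livers per regimen and time. Comparisons at the same time of day thus set 4 livers against 4, and comparisons 12 h apart use the livers of the times named. Rhythms and daily means rest on 28 livers in each regimen. Neither regimen allowed free feeding, and no genetic change was made.

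Bile acids are made from cholesterol in hepatocytes, stored in bile and released with meals to take up fat. In the classical route CYP7A1 adds the first hydroxyl group and limits the rate, and CYP8B1 adds the hydroxyl group that makes cholic acid. The alternative route starts with CYP27A1 on the side chain and goes on with CYP7B1. HSD3B7 and AKR1D1 then modify the sterol rings, SLC27A5 activates bile acids with coenzyme A, and BAAT joins them to taurine or glycine. Returning bile acids bind the nuclear receptor FXR (gene Nr1h4), FXR induces the corepressor SHP (gene Nr0b2), and SHP lowers transcription of Cyp7a1 and Cyp8b1. Cyp7a1 is known in rodents for a strong daily rhythm with more mRNA at night, when mice normally eat.

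Promoter sequences are shown for the members in which letters known from bile acid and clock regulation were found and whose levels the results turn on. RefSeq sequences on GRCm38.p6, from 250 bases before to 50 bases after the start, matched 6 of the 10 members: Cyp27a1, Nr0b2, Akr1d1, Hsd3b7, Cyp8b1 and Nr1h4. Both strands were searched for CACGTG (E-box, bound by CLOCK and BMAL1), TTATGNAA (D-box, bound by DBP and NFIL3), TCAAGG (core of sites of the receptor LRH-1), AGGTCA (nuclear receptor half-site) and CAAAGTCCA (a site of HNF4), a choice made with these sequences in view. Matches of TCAAGG and AGGTCA can share bases, and in the Akr1d1 window they share TCA on the minus strand. Capitals mark every match, and the windows are Nr0b2 at chr4:133553126-133553425 (plus strand), Cyp8b1 at chr9:121916256-121916555 (minus strand) and Akr1d1 at chr6:37529923-37530222 (plus strand).
Nr0b2: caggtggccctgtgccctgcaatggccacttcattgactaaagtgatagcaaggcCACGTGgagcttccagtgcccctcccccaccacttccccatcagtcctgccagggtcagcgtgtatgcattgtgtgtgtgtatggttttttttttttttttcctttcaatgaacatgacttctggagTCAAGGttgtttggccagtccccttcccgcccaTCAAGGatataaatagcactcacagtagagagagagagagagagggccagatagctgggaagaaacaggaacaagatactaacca
Cyp8b1: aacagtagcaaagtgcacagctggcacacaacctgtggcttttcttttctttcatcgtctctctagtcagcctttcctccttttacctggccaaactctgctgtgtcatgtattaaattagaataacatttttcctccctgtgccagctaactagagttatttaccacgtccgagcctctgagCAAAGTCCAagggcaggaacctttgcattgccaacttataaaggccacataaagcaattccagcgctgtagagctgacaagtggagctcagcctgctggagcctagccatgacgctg
Akr1d1: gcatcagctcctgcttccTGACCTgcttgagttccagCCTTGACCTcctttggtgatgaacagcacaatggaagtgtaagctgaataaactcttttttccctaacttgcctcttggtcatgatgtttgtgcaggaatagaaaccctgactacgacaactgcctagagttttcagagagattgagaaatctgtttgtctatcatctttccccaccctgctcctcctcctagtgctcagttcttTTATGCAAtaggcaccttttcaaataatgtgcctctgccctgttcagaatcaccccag
The Nr0b2 window held CACGTG at position -195 from the start, letters that 7.15% of 32851 promoters of this length hold. It also held TCAAGG at -68 and at -35 (14.4% of promoters hold it at least once). The Cyp8b1 window held CAAAGTCCA at -67 (0.475% of promoters). The Akr1d1 window held TTATGCAA at -8, as a match to the D-box letters that 3.39% of promoters have, 2 copies of AGGTCA on the minus strand at -232 and -210 (16.3% of promoters), and TCAAGG on the minus strand at -213. Cyp27a1 held a D-box match (TTATGAAA) at -60 and Nr1h4 held AGGTCA at -214, while none of these letters lay in the Hsd3b7 window. The Nr1h4 window (chr10:89506609-89506908, minus strand) lies inside the annotated gene (89454234-89533585), at a start other than the outermost. A match in letters is not evidence of binding, and no match says only that the letters are not in the window.

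Gene values are given as scaled counts, a unit rebuilt from the deposited table that compares libraries and not genes. Each library held between 309.5 and 695.6 M recovered counts (M for mega), and replicates of a group correlated across genes with r between 0.965 and 0.990. In each library all 10 members gave values within 0.2 of a whole recovered count. The hepatocyte markers were high in every library (Alb from 71459 to 125977 scaled counts), and the 5 cholangiocyte markers together stayed between 20.6 and 40.8. In bulk liver, fewer cells of a type and less RNA per cell cannot be told apart.

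Per kilobase of exon, the members fell into a wide range of levels. Over the 56 libraries the mean was highest for Cyp27a1 with 306.8 scaled counts per kilobase, followed by Nr1h4 with 277 and Slc27a5 with 252. Baat had 196, Cyp7b1 150.2, Akr1d1 67.9, Cyp7a1 39.1, Cyp8b1 27.7, Hsd3b7 17.6 and Nr0b2 9.87. The corepressor gene was thus the lowest of the list, at the 82.7th percentile of 15092 protein-coding genes, while Cyp27a1 stood at the 99.05th. By group mean per kilobase, Cyp27a1 (243 to 366), Nr1h4 (226 to 332) and Slc27a5 (211 to 312) overlapped, as did Cyp7a1 (8.74 to 59.6), Cyp8b1 (15.8 to 41.6) and Hsd3b7 (6.87 to 26.6).

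Which steps of bile acid synthesis kept a daily cycle under each feeding regimen was tested with a cosine model. A 24-h rhythm was called for 8 of the 10 members under DRF, where 37.7% of all genes tested were called, and for 6 under NRF, where 38.5% were (limma F test of a 24-h cosine, adjusted p under 0.05 over all genes). These shares are over all genes with no filter on low values. Cyp7a1 and Nr0b2 were called under NRF and not under DRF. Cyp8b1, Cyp27a1, Cyp7b1 and Slc27a5 were called under DRF and not under NRF. For 3 of these the contrast depended on the processing: on the values as deposited, which are on a logarithmic scale, 9 members were called under NRF, with Cyp27a1 (adjusted p = 0.0176), Cyp7b1 (0.0318) and Slc27a5 (0.00909) added, and with each library corrected for exon length (the length correction) 8, with Cyp27a1 and Slc27a5 added (limma F test). Without the ZT0 libraries the DRF rhythm of Cyp7b1 was lost (adjusted p = 0.0548), and without the ZT24 libraries its NRF rhythm was called (0.0412). Hsd3b7, Akr1d1, Baat and Nr1h4 were called under both (22.1% of all genes). The rhythms of the regimens were also tested against each other, and 7 members differed between regimens against 38.7% of all genes. These were Cyp7a1, Cyp8b1, Cyp27a1, Hsd3b7, Akr1d1, Baat and Nr1h4. On the deposited values 6 differed, and the call of Cyp27a1 was lost (adjusted p = 0.285 in place of 0.00428). Cyp7b1 (adjusted p = 0.994), Slc27a5 (0.304) and Nr0b2 (0.110) did not pass that test. Nr0b2 depended on DRF ZT20 replicate 1: without that library its rhythm was called under DRF (adjusted p = 0.0477, limma) and differed between regimens (0.0112).

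The 4 genes rhythmic under both regimens did not shift alike. Hsd3b7 peaked at ZT3.94 ± 0.46 h (SE) under NRF and at ZT16.4 ± 0.66 h under DRF, a shift of 11.6 ± 0.81 h that comes close to a full inversion. Nr1h4 moved from ZT13.8 ± 1.14 h to ZT22.1 ± 0.84 h, a shift of 8.36 ± 1.41 h. Baat peaked 4.86 ± 0.96 h earlier under DRF (ZT15.6) than under NRF (ZT20.4), and Akr1d1 4.33 ± 1.47 h earlier (ZT13.3 against ZT17.6). Of the 4, 2 had moved by 8 h or more and 0 by 4 h or less, against 52.4% and 22.7% of the 5614 genes rhythmic under both, whose median shift was 8.30 h. On the deposited logarithmic values the shifts of Akr1d1, Baat and Nr1h4 were smaller, at 1.56, 2.42 and 3.90 h. With the length correction the Nr1h4 shift was 6.97 h, so its place among shifts of 8 h or more depended on the processing.

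**Figure D1:**
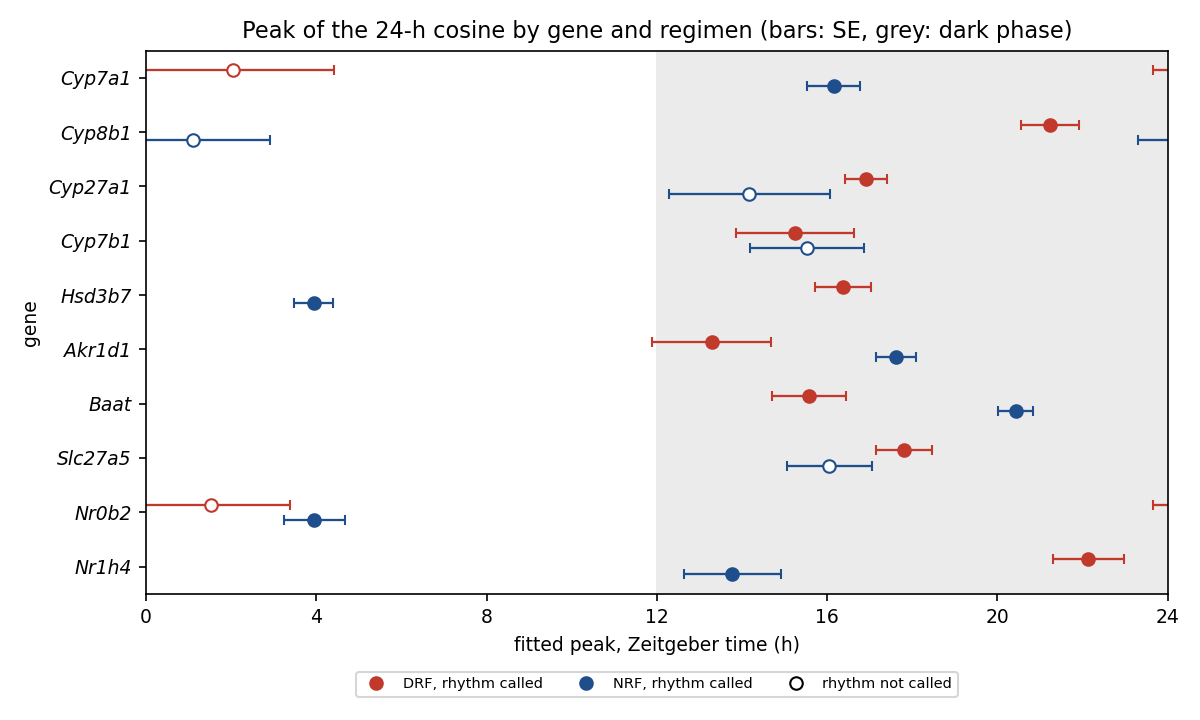
Fitted peak of the 24-h cosine (x axis, zeitgeber time in hours) for each of the 10 genes (y axis) under DRF and NRF, with bars for the SE; open symbols mark rhythms that were not called. Hsd3b7 lies at ZT3.94 under NRF and ZT16.4 under DRF, while the Cyp7b1 peaks (ZT15.5 and ZT15.2) lie together.

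Cyp7a1, the gene of the rate-limiting step, was 6.01-fold higher under DRF than under NRF at ZT4, the time of its trough under NRF. In the NRF livers at ZT4 it was at 34.2, 55.2, 29.9 and 26.7 scaled counts, and in the DRF livers at ZT4 at 216, 188, 211 and 262. These groups did not overlap, and at 219 ± 31.3 (SD, n = 4) against 36.5 ± 12.9 the difference was well beyond the spread (log2 difference 2.60 ± 0.38 (SE), adjusted p = 1.02e-06, limma). At ZT16 the order was the other way: the NRF livers had 169.5, 304.1, 236.5 and 285 and the DRF livers 178, 131, 44.0 and 91.6. There the groups met only at 1 DRF and 1 NRF liver, the fall was 1.29 ± 0.38 in log2 (adjusted p = 0.0148), and without the liver at 44.0 (DRF ZT16 replicate 3) the adjusted p was 0.123. Across the NRF day the mean ran from 36.5 at ZT4 to 249 at ZT16, 6.82-fold, with a fitted peak at ZT16.2 ± 0.62 h. Under DRF the lowest and highest means were 111 at ZT16 and 219 at ZT4, 1.97-fold apart, and the cosine was not called (adjusted p = 0.323). The rhythms differed (adjusted p = 0.000114), with an amplitude of 1.08 ± 0.19 in log2 under NRF and 0.30 ± 0.18 under DRF; the test of the amplitudes alone gave an adjusted p of 0.0636. The DRF livers varied widely within a time, as at ZT24 with 62.0, 254, 173 and 227.

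Cyp8b1, which sets the share of cholic acid, was rhythmic under DRF with a peak at ZT21.2 ± 0.69 h. Its DRF means ran from 35.2 ± 11.8 at ZT8 to 81.2 ± 20.7 at ZT20, 2.30-fold. Under NRF the means ran from 30.8 ± 9.29 at ZT16 to 63.4 ± 12.9 at ZT20, 2.06-fold, but the 24-h cosine was not called (adjusted p = 0.201). A 12-h cosine beside it was called under NRF (adjusted p = 0.0196, limma F test), though not on the deposited values (0.0727). At ZT16 the NRF livers had 17.1, 33.6, 37.7 and 34.7 and the DRF livers 70.7, 70.2, 41.2 and 54.1, every DRF liver above every NRF liver (log2 difference 0.94 ± 0.23, adjusted p = 0.003002). At ZT8 the order was reversed, with 44.2, 33.7, 19.03 and 44.0 under DRF and 54.6, 53.4, 48.6 and 63.7 under NRF, again without overlap (fall of 0.69 ± 0.23 in log2, adjusted p = 0.0357). The ZT8 call was lost when any 1 of 5 livers of those groups was left out (adjusted p up to 0.272) and on the deposited values (0.0590). Without DRF ZT8 replicate 3, the liver at 19.03, the difference in rhythm had an adjusted p of 0.0584 in place of 0.0202.

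Cyp27a1, the mitochondrial enzyme that opens the alternative route, had a larger amplitude under DRF. Its fitted peak-to-trough ratio was 1.501 under DRF, with a peak at ZT16.9 ± 0.49 h, and 1.12 under NRF, where the rhythm was not called. The amplitudes differed by 0.21 ± 0.06 in log2 (adjusted p = 0.0180), as they did for 3 members in all (Cyp27a1, Akr1d1 and Baat) and for 5.84% of all genes. The amplitude tests of this report were run on scaled counts with all libraries, and under none of the alternatives. On the deposited values the Cyp27a1 rhythms did not pass the test of a difference (adjusted p = 0.285, limma F test). The DRF mean was lowest at ZT4, where the livers had 532, 483, 455 and 639 against 651, 630.2, 713 and 596 under NRF. In these groups 1 DRF liver lay above 2 of the NRF livers, and the fall of 0.31 ± 0.11 in log2 (adjusted p = 0.0328) was lost when any 1 of 5 of these livers was left out (adjusted p up to 0.147) and on the deposited values (0.388). Cyp7b1, the next enzyme of that route, peaked at ZT15.2 ± 1.38 h under DRF and at ZT15.5 ± 1.34 h under NRF, and its rhythms did not pass the test of a difference (amplitude difference -0.00 ± 0.09 in log2, shift 0.27 ± 1.92 h). At ZT24 it had 319, 269, 276 and 274 under DRF and 331, 335, 480.4 and 330.1 under NRF, without overlap. That fall of 0.36 ± 0.12 (adjusted p = 0.0464) was lost without any 1 of 10 libraries, with an adjusted p up to 0.293, and on the deposited values (0.130).

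**Figure D2:**
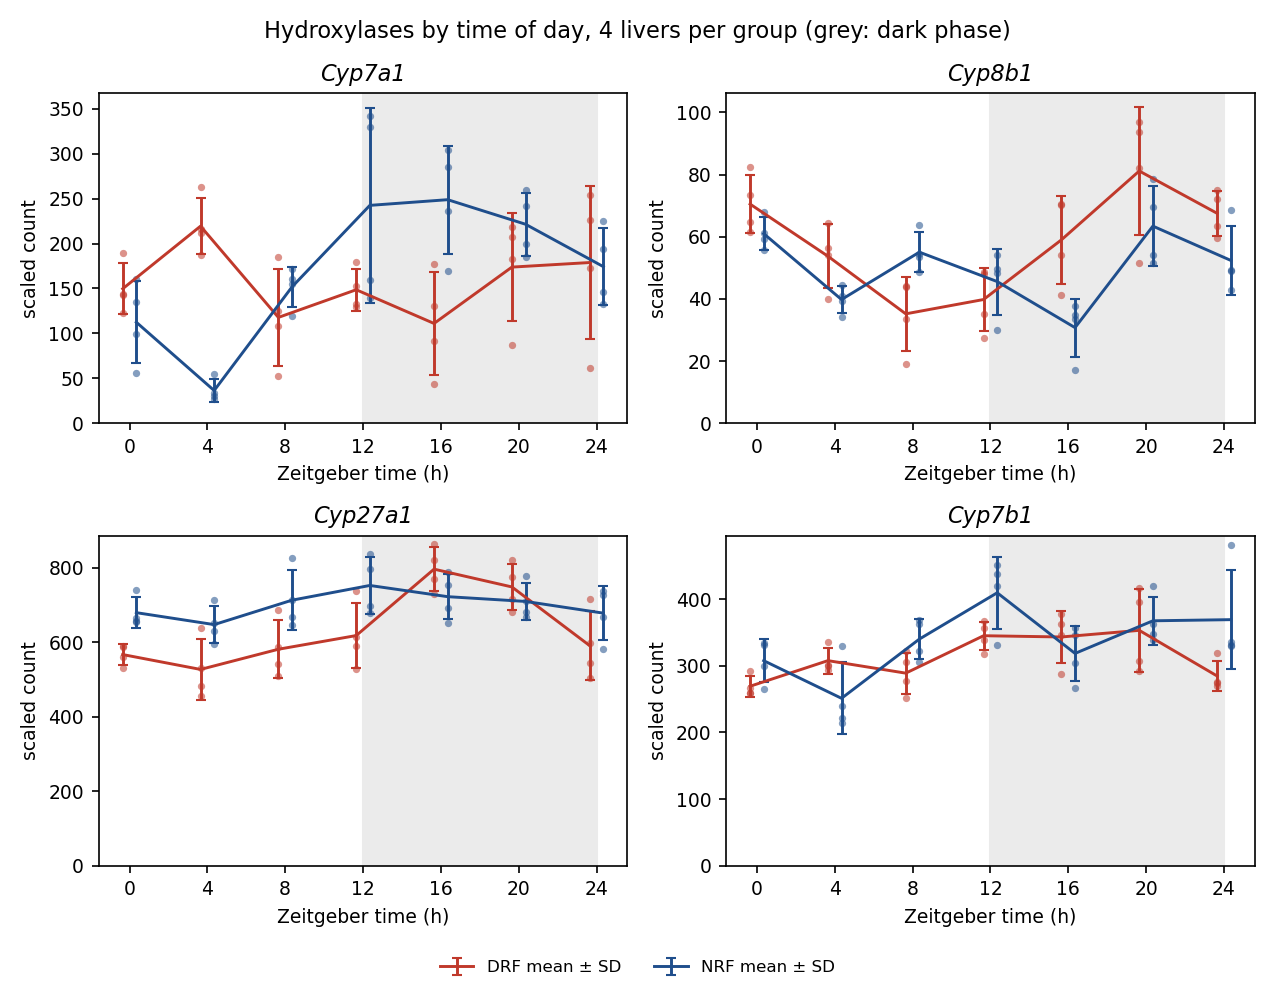
Scaled counts (y axis) of the 4 hydroxylase genes by zeitgeber time (x axis, hours) under DRF and NRF. Points are livers, and lines join means with SD bars (n = 4); at ZT4 the 4 DRF livers hold between 188 and 262 scaled counts of Cyp7a1 and the NRF livers between 26.7 and 55.2.

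Hsd3b7, which oxidises the sterol ring after the first hydroxylation, was the member whose DRF and NRF livers did not overlap at any of the 7 times, as for 0.461% of all genes. At ZT4 the DRF livers had 23.97, 29.4, 4.12 and 26.4 and the NRF livers 62.7, 75.8, 73.4 and 71.3. At ZT16 the DRF livers had 57.2, 51.7, 62.1 and 57.6 and the NRF livers 21.02, 15.8, 11.6 and 27.7. The sign thus turned within the day: DRF was lower by 1.99 ± 0.27 in log2 at ZT4 (adjusted p = 2.13e-07) and by 0.87 ± 0.27 at ZT8 (0.0231), and higher by 1.02 ± 0.27 at ZT12 (0.00554) and by 1.60 ± 0.27 at ZT16 (2.14e-05, limma). On the deposited values the calls at ZT8 and ZT12 were lost (adjusted p = 0.230 and 0.0543). DRF ZT4 replicate 3, at 4.12, lay far below the other livers of its group. Without it 6 of the 7 times were called, with ZT0 (adjusted p = 0.000424, limma) and ZT20 (0.00116) added, and the difference at ZT4 was -1.38. The ZT8 call was lost without any 1 of 5 livers of that time (DRF replicates 1, 3 and 4, NRF replicates 1 and 2, adjusted p up to 0.0693). Means ran from 20.96 ± 11.4 at ZT4 to 62.5 ± 7.04 at ZT12 under DRF and from 19.02 ± 6.93 at ZT16 to 73.6 ± 11.7 at ZT8 under NRF, and the mean over the day did not pass the test (log2 difference 0.01 ± 0.12). Other genes overlap 99.2% of the exon bases of Hsd3b7 (chr7:127800604-127803802, plus strand, GRCm38, GENCODE vM21). One is Gm49388 on the same strand, not analysed here, and the other is 9430064I24Rik on the opposite strand, which lay between 1.44 and 11.6 scaled counts over all libraries and at 3.85 in DRF ZT4 replicate 3. The labels describe strand-specific libraries, but the use of strand in counting is not given in the sources used here. Gm49388 shares 62.0% of the Hsd3b7 exon bases on the same strand, which counting by strand would not tell apart. Hsd3b7 values are uncertain for both reasons.

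Akr1d1, the reductase that fixes the bent ring shape of bile acids, was higher under DRF at ZT4, ZT8 and ZT12. At ZT8 the DRF livers had 223, 177, 205 and 234 and the NRF livers 131, 152, 154 and 115, all DRF livers above all NRF livers (0.60 ± 0.12 in log2, 1.52-fold). The differences at ZT4 (0.51) and ZT12 (0.35) were also called, the latter lost without any 1 of 30 libraries (adjusted p up to 0.235). The amplitude was smaller under DRF, at 0.14 ± 0.05 in log2 against 0.37 ± 0.05 under NRF (adjusted p = 0.0306).

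Slc27a5, which couples bile acids to coenzyme A before conjugation, was rhythmic under DRF with a peak at ZT17.8 ± 0.66 h and an adjusted p of 1.32e-06. At ZT16 its DRF livers lay together at 763, 747, 759 and 759, and every one of them was above the NRF livers, which had 548, 664, 459 and 724. That difference of 0.36 ± 0.11 (adjusted p = 0.0251) was lost without any 1 of 5 of these livers, with an adjusted p up to 0.193, and on the deposited values (0.274). At ZT0 the DRF livers had 658, 634, 698 and 587 and the NRF livers 464, 558, 503 and 531 (0.33 ± 0.11, adjusted p = 0.0435), likewise without overlap, a call lost without any 1 of 6 of these livers (adjusted p up to 0.139). The NRF rhythm missed the threshold (adjusted p = 0.0667), and it was called without any 1 of 4 libraries, NRF ZT12 replicate 1, ZT16 replicates 1 and 3 and ZT4 replicate 2 (adjusted p down to 0.00908).

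Baat, which joins bile acids to taurine or glycine, peaked earlier and swung less under DRF. At ZT8 its DRF livers had 372, 343, 337 and 362 and its NRF livers 294, 292, 269 and 269.6, without overlap (0.33 ± 0.09 in log2, adjusted p = 0.0113), a call lost on the deposited values (0.247). At ZT12 the DRF livers had 436, 413, 422 and 394 and the NRF livers 289, 266, 359 and 367, again apart (0.39 ± 0.09). At ZT16 the groups overlapped at 1 liver, with 468, 449.5, 456 and 434 under DRF and 397, 398, 293 and 435 under NRF. The ZT16 difference of 0.26 ± 0.09 (adjusted p = 0.0479) was lost without any 1 of 37 libraries (adjusted p up to 0.358), on the deposited values (0.474), with the length correction (0.189) and with median-of-ratios scaling (0.0900). At ZT0 and ZT20 the regimens did not overlap either, with DRF lower by values that missed the threshold (-0.19 and -0.26, adjusted p = 0.177 and 0.0560), of which ZT20 was called with median-of-ratios scaling (0.0149), with the length correction (0.0455) and over genes with a mean scaled count of at least 1 (0.0380). The fitted peak-to-trough ratio was 1.26 under DRF and 1.63 under NRF, and the amplitudes differed (adjusted p = 0.0307).

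**Figure D3:**
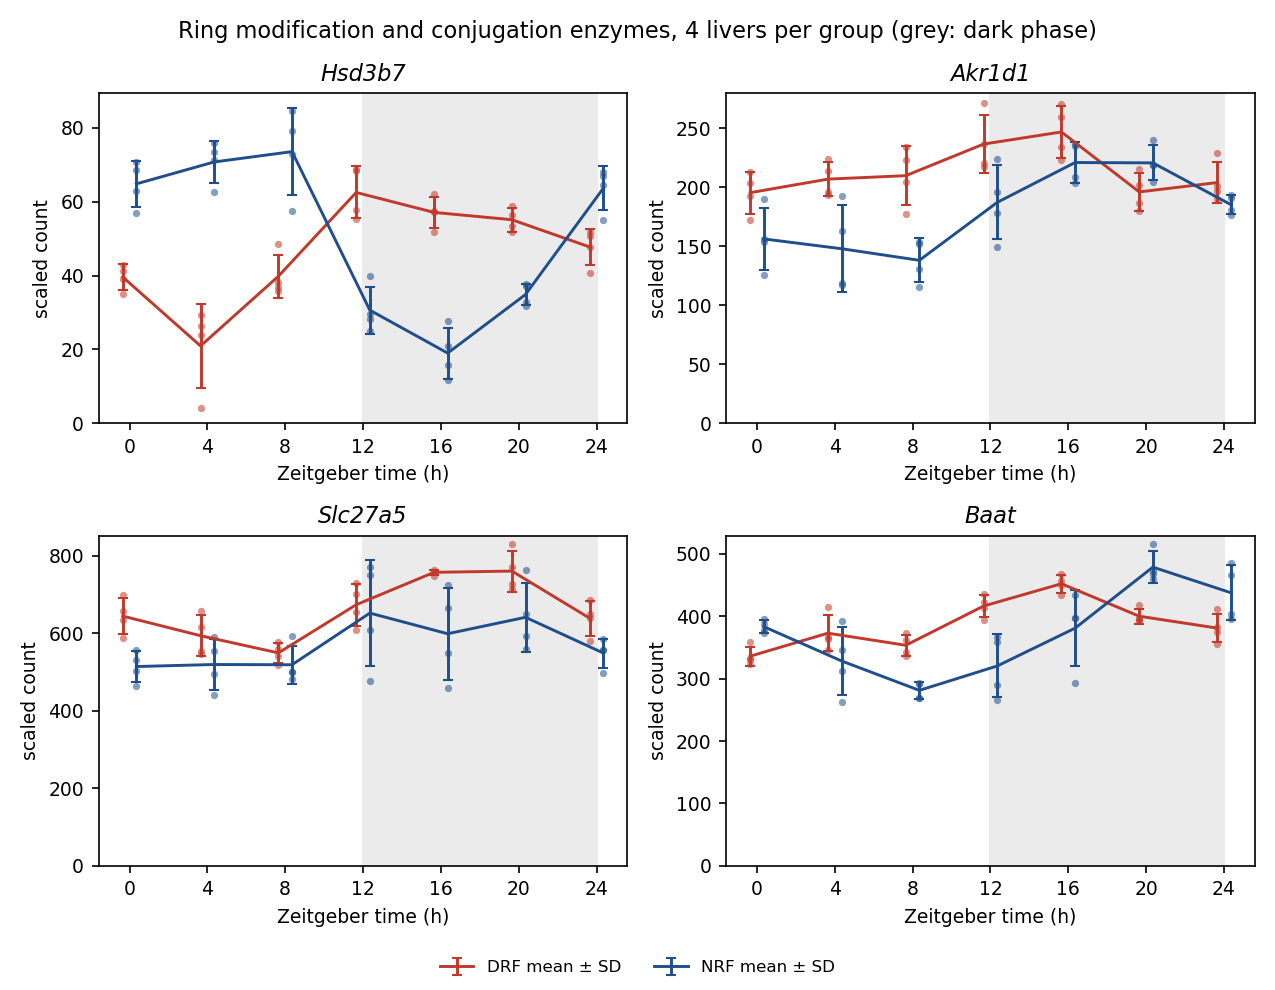
Scaled counts (y axis) of Hsd3b7, Akr1d1, Slc27a5 and Baat by zeitgeber time (x axis, hours); points are livers, lines join means with SD bars (n = 4). The Hsd3b7 curves of DRF and NRF cross between ZT8 and ZT12 and again after ZT20, and its DRF liver at 4.12 lies below the others at ZT4.

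Nr0b2, the gene of SHP, was lowest in NRF livers at ZT16, the time of highest mean Cyp7a1 under that regimen. The NRF livers at ZT16 had 3.49, 2.19, 3.83 and 2.08 scaled counts, and the DRF livers 6.06, 8.38, 14.7 and 10.5, without overlap (1.45 ± 0.37 in log2, 3.42-fold, adjusted p = 0.00442). At ZT4, when NRF Cyp7a1 was lowest, NRF livers had 15.7, 13.7, 21.9 and 15.5 and DRF livers 12.1, 20.1, 10.4 and 9.90, which overlapped and did not pass the test (log2 difference -0.36, adjusted p = 0.562). Under NRF the mean ran 5.77-fold between 2.90 ± 0.89 and 16.7 ± 3.55, with a fitted peak at ZT3.95 ± 0.71 h. Under DRF it lay between 8.85 ± 2.11 at ZT12 and 16.95 ± 5.85 at ZT0, and single livers spread widely, as at ZT20 with 2.06, 20.9, 8.83 and 12.0. The DRF livers overlapped at every time with the NRF livers except at ZT16. Cyp8b1, which SHP also represses, had its lowest NRF mean at ZT16 too (30.8 ± 9.29). Under DRF, mean Cyp7a1 was highest at ZT4, where mean Nr0b2 was 13.1 and not at its lowest. Over the 14 group means, Nr0b2 correlated with r = -0.51 with Cyp7a1 and 0.51 with Cyp8b1. Whether SHP had a part in these Cyp7a1 and Cyp8b1 levels was not tested.

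Nr1h4, the gene of FXR, had group means within 1.47-fold under NRF and 1.39-fold under DRF. They ran from 521 ± 98.9 at ZT4 to 764 ± 30.8 at ZT12 under NRF and from 539.7 ± 59.3 at ZT12 to 752 ± 73.7 at ZT20 under DRF. At ZT12 the NRF livers had 798, 779, 727 and 754 and the DRF livers 507, 473, 583 and 596, far apart (fall of 0.51 in log2, adjusted p = 0.000122). At ZT8 DRF was also lower (-0.32, adjusted p = 0.0170), and at ZT4 it was higher (0.40). The ZT8 call was lost without DRF ZT8 replicate 2 or NRF ZT8 replicate 1 (adjusted p up to 0.0985), and on the deposited values both the ZT12 and the ZT8 call were lost (0.184 and 0.186). A small difference at ZT0 (0.27, adjusted p = 0.0486) was lost without any 1 of 35 libraries, with median-of-ratios scaling, with a pseudocount of 0.1 and with the length correction (adjusted p up to 0.0584 under these 3). The NRF rhythm (adjusted p = 0.0327) was lost without any 1 of 7 libraries (up to 0.0690), without the ZT0 libraries (0.0800), without the ZT24 libraries (0.0696) and by the rank test alone (0.05001).

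**Figure D4:**
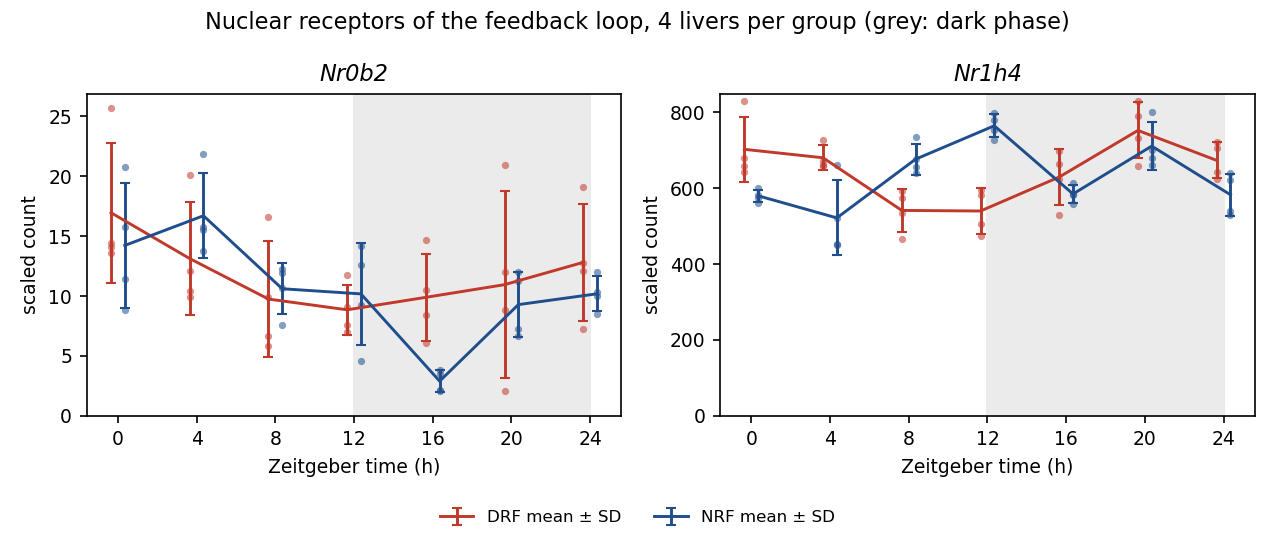
Scaled counts (y axis) of Nr0b2 and Nr1h4 by zeitgeber time (x axis, hours); points are livers, lines join means with SD bars (n = 4). All 4 NRF livers at ZT16 hold under 4 scaled counts of Nr0b2, while the DRF livers hold between 6.06 and 14.7.

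Set side by side at the same time of day, the regimens differed in 23 of 70 pairs of member and time, 15 higher and 8 lower under DRF, where 15.3% of all such pairs in the gene table were called, 7.85% as higher and 7.48% as lower. Shares of all genes in this report include low genes. The members lay at or above the 82.7th percentile of protein-coding genes by mean level per kilobase. Shares among genes of like level are not given here. The calls numbered 2 for ZT0, where 16% of all genes were called, 5 for ZT4 (20.3%) and 5 for ZT8 (13%). They numbered 4 for ZT12 (15.1%), 6 for ZT16 (15.1%), 0 for ZT20 (13.7%) and 1 for ZT24 (14%). At ZT20, 3 members were under an unadjusted p of 0.05 (limma). The livers of the regimens did not overlap in 24 of the 70 pairs, against 18% of all pairs. Hsd3b7 and Nr1h4 were called at 4 times each, Akr1d1 and Baat at 3, Cyp7a1, Cyp8b1 and Slc27a5 at 2, and Cyp27a1, Cyp7b1 and Nr0b2 at 1. When each of the 56 libraries was left out in turn, 12 of the 23 calls held throughout. On the deposited values 10 of the 23 were lost and 1 was added (Akr1d1 at ZT0, adjusted p = 0.0258).

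The regimens were next set 12 h apart, so that DRF livers were matched to NRF livers of the opposite time of day, to ask which members would coincide if their cycle had moved by the full 12 h. In that comparison 20 of 60 pairs differed, 14 higher and 6 lower under DRF, against 11.7% of all genes and pairs (6.29% higher and 5.37% lower). DRF ZT0/24 against NRF ZT12 had 2 calls (5.54% of all genes), DRF ZT4 against NRF ZT16 had 3 (14.7%), DRF ZT8 against NRF ZT20 had 3 (11.6%), DRF ZT12 against NRF ZT0/24 had 2 (4.65%) and DRF ZT20 against NRF ZT8 had 3 (16.3%). Hsd3b7 was called in 0 of 6 pairs, with log2 differences between -0.40 and 0.51 (limma, 1 pair under an unadjusted p of 0.05), but without DRF ZT4 replicate 3 it was called in 2 (DRF ZT0/24 against NRF ZT12, 0.51, adjusted p = 0.00942, and DRF ZT4 against NRF ZT16, 0.52, 0.0247). Nr0b2 did not coincide: at DRF ZT4 it was higher than at NRF ZT16 by 1.83 ± 0.37 (adjusted p = 0.000734). Cyp7a1 differed between DRF ZT16 and NRF ZT4 by 1.47 ± 0.38 (adjusted p = 0.00490), higher under DRF. DRF ZT16 against NRF ZT4 was the pair with most calls, 7 of 10 members and all 7 higher under DRF, against 17.3% of all genes called in either direction and 9.49% called as higher. These were Cyp7a1, Cyp27a1, Cyp7b1, Akr1d1, Baat, Slc27a5 and Nr1h4, of which Cyp27a1 and Nr1h4 were lost without any 1 of 6 libraries (adjusted p up to 0.136 and 0.170) and with median-of-ratios scaling (0.112 and 0.134). The factors of that scaling lay between 0.942 and 0.994 for NRF ZT4 and between 1.01 and 1.03 for DRF ZT16. Without that scaling, this offset goes in the direction of the 7 calls. On the deposited values 3 of the 20 calls were lost, Cyp27a1 (0.351) and Cyp7b1 (0.0604) at DRF ZT0/24 against NRF ZT12 and Cyp8b1 (0.0683) at DRF ZT4 against NRF ZT16, and 9 were added. Without the ZT0 libraries 3 were lost, Akr1d1 and Slc27a5 at DRF ZT12 against NRF ZT0/24 and Cyp27a1 at DRF ZT16 against NRF ZT4. Of the 20 calls, 14 held when each library was left out in turn.

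**Figure D5:**
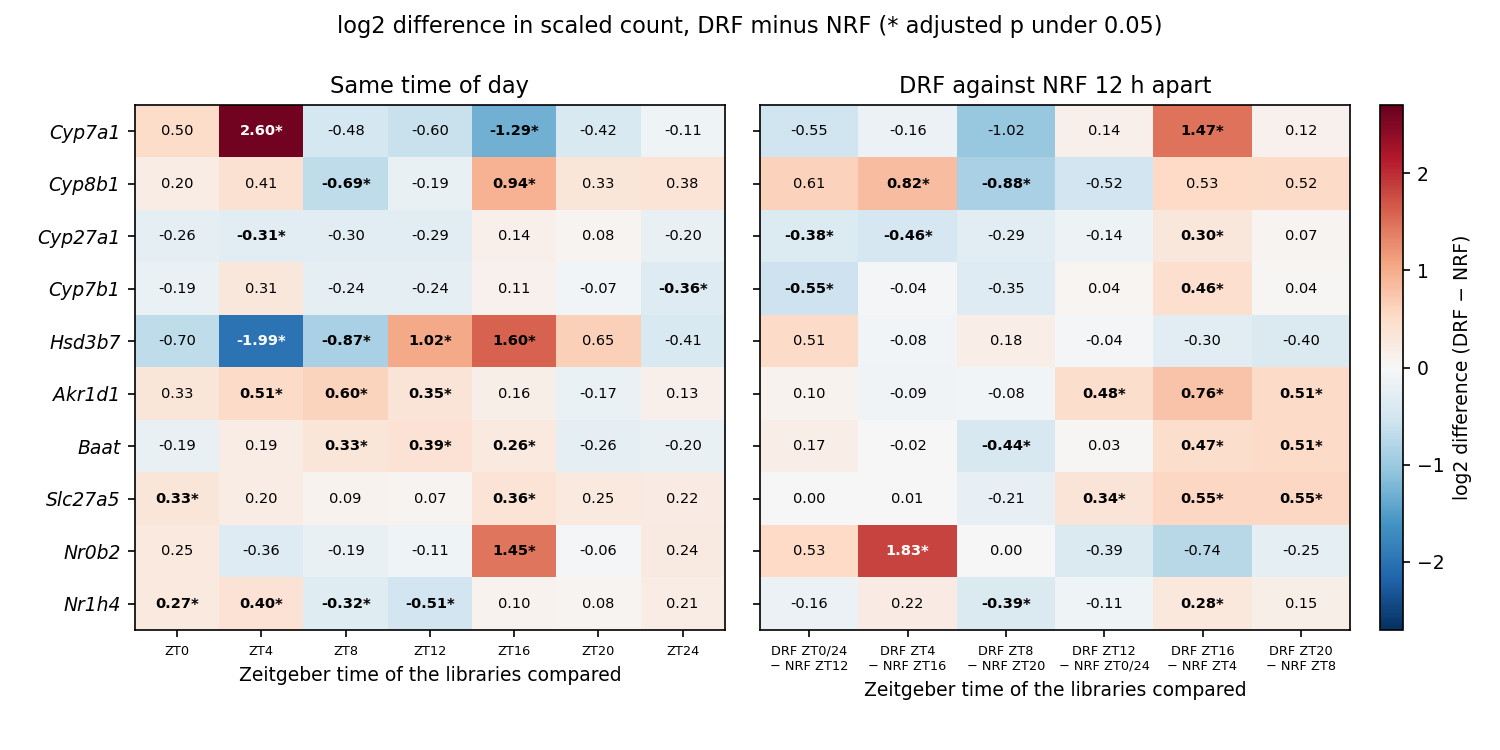
Difference in log2(scaled count + 1), DRF minus NRF, for the 10 genes (rows) at each of 7 times of day (left) and for 6 pairs of times 12 h apart (right); red is higher and blue lower under DRF, and an asterisk marks an adjusted p under 0.05. Cyp7a1 stands out at ZT4 with 2.60, and the Hsd3b7 row turns from -1.99 at ZT4 to 1.60 at ZT16 but holds no asterisk on the right.

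Averaged over the day, 4 of the 10 members differed, against 6.8% of all genes. Akr1d1 was higher under DRF by 0.29 ± 0.05 in log2 (adjusted p = 2.87e-05), Slc27a5 by 0.21 ± 0.04 (0.00102) and Baat by 0.12 ± 0.04 (0.0439), and 4.1% of all genes were called as higher. Cyp27a1 was lower by 0.16 ± 0.04 (0.00635), as were 2.7% of all genes. The Baat call was lost without any 1 of 30 libraries (adjusted p up to 0.0782) and under 6 alternatives, among them median-of-ratios scaling (0.101), and the Cyp27a1 call was lost on the deposited values (0.499). Daily means of Cyp7a1 (-0.08 ± 0.18), Cyp8b1 (0.17 ± 0.10), Hsd3b7 (0.01 ± 0.12), Nr0b2 (0.19 ± 0.15) and Nr1h4 (-0.02 ± 0.05) did not pass the test. Beside these values, all 4 periportal hepatocyte markers (Cyp2f2, Hal, Sds and Gls2) were higher under DRF, by between 0.13 and 0.52 in log2, with a summed level from 1402 to 2346 under DRF and from 1256 to 1965 under NRF. All 3 red blood cell markers were higher by between 0.35 and 0.57 (summed level 374 to 1324 against 299 to 822), as was 1 of 4 pericentral markers, Oat (0.71). Of 4 hepatocyte markers, Cps1 was higher (0.24) and Apoa1 lower (-0.33), and of 2 exocrine pancreas markers Cela1 was lower (-0.41). Ttr, Cpa1 and Prss2 were not analysed here. None of the 5 cholangiocyte, 5 Kupffer cell, 4 endothelial or 4 stellate cell markers differed in daily mean, and no marker measured was at 0 in any library. Their part in the results was not tested.

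ZT0 and ZT24 are the same time of day in different animals, and they measure how far groups differ without a change of time. None of the 10 members was called between them under DRF (3.07% of all genes) or under NRF (7.82%), with 0 and 1 member under an unadjusted p of 0.05 (limma; the latter Akr1d1, 0.26 ± 0.12). The largest shifts of the members by size were 0.70 ± 0.38 for Cyp7a1 under NRF and -0.40 ± 0.37 for Nr0b2 under DRF. A 12-h component beside the 24-h cosine was called for Cyp8b1 (adjusted p = 0.0196) and Nr1h4 (0.0220) under NRF, against 0.76% of all genes. Under DRF it was called for none, against 6.4% of all genes, with 2 members under an unadjusted p of 0.05 (limma). Both calls were lost on the deposited values (0.0727 and 0.684). The Nr1h4 call was also lost with median-of-ratios scaling (0.0588), with the length correction (0.0886) and without NRF ZT16 replicate 1 or 2 or NRF ZT4 replicate 4 (adjusted p up to 0.0579), and a DRF call of Hsd3b7 appeared without DRF ZT4 replicate 3 (0.00721).

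Animals within a group were then compared to ask whether livers with more Nr0b2 held less Cyp7a1 or Cyp8b1, since SHP represses both. Deviations from the group mean of log2(scaled count + 1) were correlated over 56 livers, with 3 pairs in the family and permutations within groups. Between Nr0b2 and Cyp7a1, r was -0.32 (permutation p = 0.0704, adjusted 0.106, two-sided) and Spearman's rho -0.29 (p = 0.0623, adjusted 0.0935). Without the 2 livers farthest from the median of Nr0b2, r was -0.24. Within the regimens r was -0.52 over the DRF livers and 0.10 over the NRF livers, a difference that was not tested. An example chosen after the values were seen is DRF ZT20: the liver with 20.9 scaled counts of Nr0b2 had 86.8 of Cyp7a1 and the other livers, with 2.06, 8.83 and 12.0, had 208, 218 and 183. Without the liver at 20.9 (DRF ZT20 replicate 2), r over all groups was -0.23, the weakest with any 1 library left out. Between Nr0b2 and Cyp8b1, r was -0.11 (permutation p = 0.552, adjusted 0.552) and rho -0.17 (0.279, adjusted 0.279), and r without the 2 farthest livers was -0.18. Cyp7a1 and Cyp8b1 went together with r = 0.37 (permutation p = 0.0175, adjusted 0.0526) and rho = 0.45 (p = 0.00148, adjusted 0.00444), and r stayed at 0.39 without the 2 livers farthest in Cyp7a1. The rank correlation of the 2 enzymes passed after adjustment, and the linear correlation did not.

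Further enzymes of the route, mostly of peroxisomal side chain shortening, were rhythmic for 5 of 9 measured genes under DRF (37.7% of all genes) and 7 under NRF (38.5%), and the rhythms of 5 differed (38.7%). Acox2, the oxidase of the bile acid side chain, moved from ZT2.35 under NRF to ZT16.4 under DRF, a shift of 9.98 ± 0.77 h, and its daily mean was higher under DRF by 0.33 ± 0.06. Amacr, the racemase ahead of it, shifted by 8.11 ± 0.74 h, and Cyp39a1, which acts on another oxysterol, by 1.55 ± 0.81 h. Daily means of 4 of the 9 were higher under DRF (Acot8, Acox2, Hsd17b4 and Scp2) and of 0 lower, against 4.1% and 2.7% of all genes. The median difference was 0.15 where the members had 0.07 and all genes -0.00. At the same time of day 16 of 63 pairs were higher and 5 lower (7.85% and 7.48% of all pairs), and 14 of 54 pairs differed 12 h apart (11.7%). Ch25h and Cyp2c70 were not analysed here.

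Of 13 regulators, 11 were rhythmic under each regimen (37.7% of all genes under DRF and 38.5% under NRF), 10 under both (22.1%), and 12 differed in rhythm (38.7%). At the same time of day 28 of 91 pairs were higher and 22 lower (7.85% and 7.48% of all pairs), and 25 of 78 pairs were called 12 h apart (11.7%). Of the 10, 7 shifted by 8 h or more, against 52.4% of all genes rhythmic under both. Clock output factors were among these: Dbp by 10.2 ± 0.41 h (ZT10.6 to ZT0.38), Nfil3 by 10.5 ± 0.44 h and Nr1d1, which encodes REV-ERBα, by 11.1 ± 0.49 h. Fgfr4 and Klb, which form the hepatic receptor of the intestinal hormone FGF15, shifted by 10.8 ± 1.02 h and 11.2 ± 1.07 h. Hnf4a, an activator of Cyp7a1 and Cyp8b1, moved by 6.34 ± 1.395 h. Nr5a2, the gene of LRH-1, was rhythmic under DRF and not under NRF (adjusted p = 0.816), and its rhythms differed (0.00233). Mafg, a repressor induced by FXR, was rhythmic under neither. Among the daily means of the 13, Ppargc1a was called, higher by 0.34 ± 0.07 under DRF, as were 4.1% of all genes.

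The 3 other genes induced by FXR in liver were all rhythmic under both regimens (22.1% of all genes) and differed in rhythm (38.7%). Of 21 same-time pairs 9 were higher and 6 lower (7.85% and 7.48% of all pairs), and 5 of 18 were called 12 h apart (11.7%). Abcb11, the bile salt export pump, peaked at ZT2.78 under NRF and ZT16.6 under DRF, a shift of 10.2 ± 0.46 h with adjusted p of 1.68e-08 and 9.34e-10 for the rhythms. Abcb4, the phospholipid exporter of bile, shifted by 11.9 ± 0.70 h. Slc51b, a bile acid transporter to blood, was low at 0.821 scaled counts on average, shifted by 7.70 ± 1.09 h and was higher under DRF by 0.45 ± 0.07 in log2. The fitted Nr0b2 peak lay at ZT3.95 under NRF and at ZT1.52 ± 1.86 h under DRF, where Nr0b2 was not called as rhythmic.

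By their 14 group means of log2(scaled count + 1), the protein-coding genes most like each of 3 members were sought among 8275 genes. Cyp7a1 was most like Nup50 (r = 0.877), Mtrr (0.871) and Kpna2 (0.854), Cyp8b1 most like Siah1a (0.854), Pfas (0.839) and Mppe1 (0.838), and Nr0b2 most like Pex11g (0.929), Rrp1 (0.883) and Prr13 (0.848). These are descriptions over group means that share libraries. Among the members themselves the group means of Cyp7a1 correlated with r = -0.61 with Hsd3b7, 0.63 with Cyp7b1 and 0.12 with Cyp8b1.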

How the data were processed

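Liver RNA of 56 mice was sequenced from ribosome-depleted, strand-specific paired-end libraries, per the labels' protocol text; their molecule field says polyA RNA. The submitters' processing notes name CASAVA 1.8, featureCounts 1.5.0-p3 and the builds mm10 and GRCm38.p6; the aligner is not given in the sources used here. The authors deposited a gene table named TPM, whose values are a score and not linear: multiplied by exon length they equal a·ln(1 + f·k), where k is a whole count and a and f belong to the library. Scaled counts f·k were recovered with GENCODE vM21 lengths, and 1 unit stood for between 304 and 723 counts. In genes left out of the fit and not given another length, 100% of the values below 1000 came within 0.05 of whole, against 10% by chance. Most of these genes kept the GENCODE length because their values came out whole with it. The share is therefore partly set by that choice and is not an independent check. Of 25415 genes, 25396 were used, 2210 of them with a length searched on the values and 84 too deep to judge, and 19 were left out. Of 24268 Ensembl identifiers, 24247 matched. Recovered counts far exceed the depth of such libraries and are not reads, so precision comes from the spread between animals, and no counting interval is given. Every column had a sample (0 were left out), and groups came from the labels, which give no batch. The transcript and circRNA tables were not used here.

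Tests used limma 3.58.1 (trend) in R 4.3.3 on log2(scaled count + 1) over all 25396 genes with no filter on low values, Benjamini-Hochberg adjustment and a threshold of 0.05. Log2 differences on this scale understate the change of low genes. Group means gave the differences at each time, 12 h apart and between ZT24 and ZT0; a 24-h cosine model gave rhythms, peaks, amplitudes (log2, mean to peak) and daily means, with delta-method SE. Correlations used 100000 permutations within groups (numpy 2.4.6, scipy 1.17.1). Scripts were tested on simulated data. The design was written for values named TPM and kept for scaled counts. All 10 members are named in every comparison; lists, markers and the likeness rule (the 3 genes with the highest r over group means, mean scaled count of at least 5) were set by hand, and members and lists were chosen with earlier results of these data known. Alternatives were the deposited values, median-of-ratios scaling, a pseudocount of 0.1, a length correction, a mean scaled count of at least 1, the replicate number as a block, no trend, a linear scale, a rank test against 12 cosine templates, no ZT0 or ZT24 libraries, and each library left out.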

Additional observations from a re-analysis of the deposited data

Results flagged for a closer look

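A single liver stood apart from the 3 others of its group (by Dixon's test of the gap against the group's range, on scaled counts and not on log2 values) in 7 of 140 groups of member, regimen and time, and chance flags about 1 group in 20. Cyp7b1 had 3 of them: NRF ZT24 replicate 3 at 480.4 scaled counts beside 330.1 to 335, DRF ZT24 replicate 1 at 318.8 beside 269 to 276, and DRF ZT4 replicate 2 at 336.3 beside 294 to 301. Nr0b2 in DRF ZT0 replicate 3 was at 25.72 beside 13.6 to 14.4. Cyp27a1 in NRF ZT0 replicate 3 was at 740.2 beside 655 to 666, Baat in DRF ZT20 replicate 2 at 417.5 beside others up to 396, and Slc27a5 in NRF ZT8 replicate 3 at 591.8 beside 482 to 501. Hsd3b7 in DRF ZT4 replicate 3, at 4.12, was not flagged by this rule.

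The 24-h rhythm differed between DRF and NRF, by the limma F test over all genes, for Hsd3b7 (adjusted p = 1.65e-10), Baat (1.35e-06), Nr1h4 (4.12e-05), Cyp7a1 (0.000114), Akr1d1 (0.000451), Cyp27a1 (0.00428) and Cyp8b1 (0.0202).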

How the results depend on the processing

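On the values as deposited, 14 of 70 pairs of member and time were called in place of 23, 2 daily means in place of 4, 1 member under DRF and 7 under NRF between ZT24 and ZT0 in place of 0, and 0 members with a 12-h component under NRF in place of 2; the ZT24 minus ZT0 difference of Cyp27a1 under NRF turned to 0.10. With the length correction 1 and 3 members were called between ZT24 and ZT0 under DRF and NRF, and 1 had a 12-h component under each regimen. Median-of-ratios scaling left 1 member with a 12-h component under NRF, and with a mean scaled count of at least 1 there were 1 under DRF and 4 under NRF. Cyp7a1 and Cyp8b1 correlated within groups with r = 0.39 on the deposited values (adjusted p = 0.0310, permutation test). Shares of all genes are given in this report for the main tests only, and not for the alternatives. Counts under the alternatives can therefore not be read as particular to the members. The cause of these changes was not tested.

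Leaving out each library in turn gave 18 to 25 calls at the same time of day, 18 to 22 calls 12 h apart, 6 to 8 differences in rhythm, 3 to 4 in daily mean, 8 to 9 rhythms under DRF and 5 to 7 under NRF, 0 to 1 and 1 to 3 members with a 12-h component under DRF and NRF, and 0 between ZT24 and ZT0 under either. Without DRF ZT4 replicate 3, Hsd3b7 at DRF ZT4 against NRF ZT16 turned from -0.08 to 0.52, and over all libraries left out it ran from -0.33 to 0.52. The correlations ran from -0.42 to -0.23 for Nr0b2 and Cyp7a1, from -0.22 to -0.06 for Nr0b2 and Cyp8b1 and from 0.30 to 0.45 for Cyp7a1 and Cyp8b1. Replicate numbers do not pair the animals (median r of deviations 0.005 between libraries of the same number, 10.2% of 364 pairs over 0.1); a replicate block gave 19 calls at the same time of day and r = 0.39 for Cyp7a1 and Cyp8b1 (adjusted p = 0.0181, permutation test). The recovered counts are not reads, so precision rests on the spread between the 4 animals of a group.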
